A study of Mus musculus with 14 samples.

Results

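Kidney RNA was examined here for 10 genes that mark monocytes and macrophages: Cx3cr1, Ccr2, Adgre1, Csf1r, Cd68, Stab1, Mrc1, C1qa, Cd163 and Itgam. They were chosen by symbol, matched to Ensembl IDs through the GENCODE mouse annotation, and make up 10 of the 56980 gene IDs in the counts. All 10 had more than 10 counts summed over the 14 libraries, as did 22339 genes in all. Whole kidneys of 18-week-old female wild-type mice of the outbred CD-1 stock had been sequenced in bulk, with 1 library per mouse. There were 4 mice in the term non-diabetic group (T-ND), 4 that were term-born and diabetic (T-D), 3 in the preterm non-diabetic group (PT-ND) and 3 that were preterm and diabetic (PT-D). T-D and PT-D mice had received low-dose streptozotocin (STZ), a toxin of insulin-producing cells, as young adults, and some PT-D females but no T-D females had a repeat course. Preterm pups were delivered by Caesarean section a day before term and raised by foster dams that were given acepromazine, a sedative. Term pups were born naturally and stayed with their own dams. Delivery, fostering, sedation of the dam and early birth thus cannot be told apart. All mice, controls included, had received cationic ferritin, an iron-carrying glomerular label, before they were euthanised and perfused.

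Monocytes are made in the bone marrow and circulate in the blood, and in mice they fall into a classical type that carries the chemokine receptor CCR2 and a patrolling type rich in the fractalkine receptor CX3CR1. Tissue macrophages of the kidney lie between tubules and capillaries, depend on signals through CSF1R, and clear dead cells, immune complexes and iron-laden debris. None of the 10 genes is perfectly specific. ITGAM is also carried by neutrophils, and STAB1 is also made by some endothelial cells. In RNA from whole kidney, more cells of a type and more RNA per cell cannot be told apart.

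The genes differed widely in abundance. Levels below are normalized read counts, that is, counts scaled to a common library size with the TMM method. Per kilobase of exon, averaged over the 14 libraries, C1qa was the most abundant at 350.5 normalized counts per kb, followed by Csf1r at 144.0, Cd68 at 53.5, Adgre1 at 34.5 and Stab1 at 31.5. Ccr2 stood at 8.49, Mrc1 at 5.07, Cx3cr1 at 4.92, Itgam at 4.64 and Cd163 at 0.931 normalized counts per kb. Cd163 had 3 reads or fewer in 6 of the 14 libraries, Cx3cr1 in 2, both of them T-D, and Itgam in 1. Differences of Cd163, and those of Cx3cr1 that involve T-D, were therefore close to the limit of this depth. The annotation also bears on 2 of the levels. Exons of Itgam share 67.4% of their bases with those of Gm49368, an overlapping gene model on the same strand, and reads in shared exons were left uncounted, so the Itgam counts come from the remainder of the gene. Exons of Csf1r share 19.8% of their bases with those of Hmgxb3 on the opposite strand, and these libraries do not keep strand. Stab1 and Cx3cr1 shared at most 1.67% of their exon bases with another gene.

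Some libraries stood apart and matter below. Hmox1, the heme-degrading enzyme, split the T-ND group, with 79420 and 72243 normalized counts in replicates 1 and 2 against 1539 and 2674 in replicates 3 and 4. The other libraries lay between 2232 and 6651 in T-D, between 27214 and 69172 in PT-ND and between 59759 and 76462 in PT-D. A suffix a, whose meaning the sources used here do not give, ends the names of 5 libraries, namely replicate 1 of PT-D and of T-D, replicate 2 of PT-ND, and both T-ND libraries with high Hmox1. Log2 fold changes of the 10 genes against T-ND are therefore also given without either pair of T-ND libraries, a check chosen after the data were seen. In T-D replicate 4 the 10 endothelial genes summed to 5971 normalized counts, the lowest of the 14 libraries, and C1qa was the highest. Counts on genes ranged from 16697246 to 28673176 per library.

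**Figure D1:**
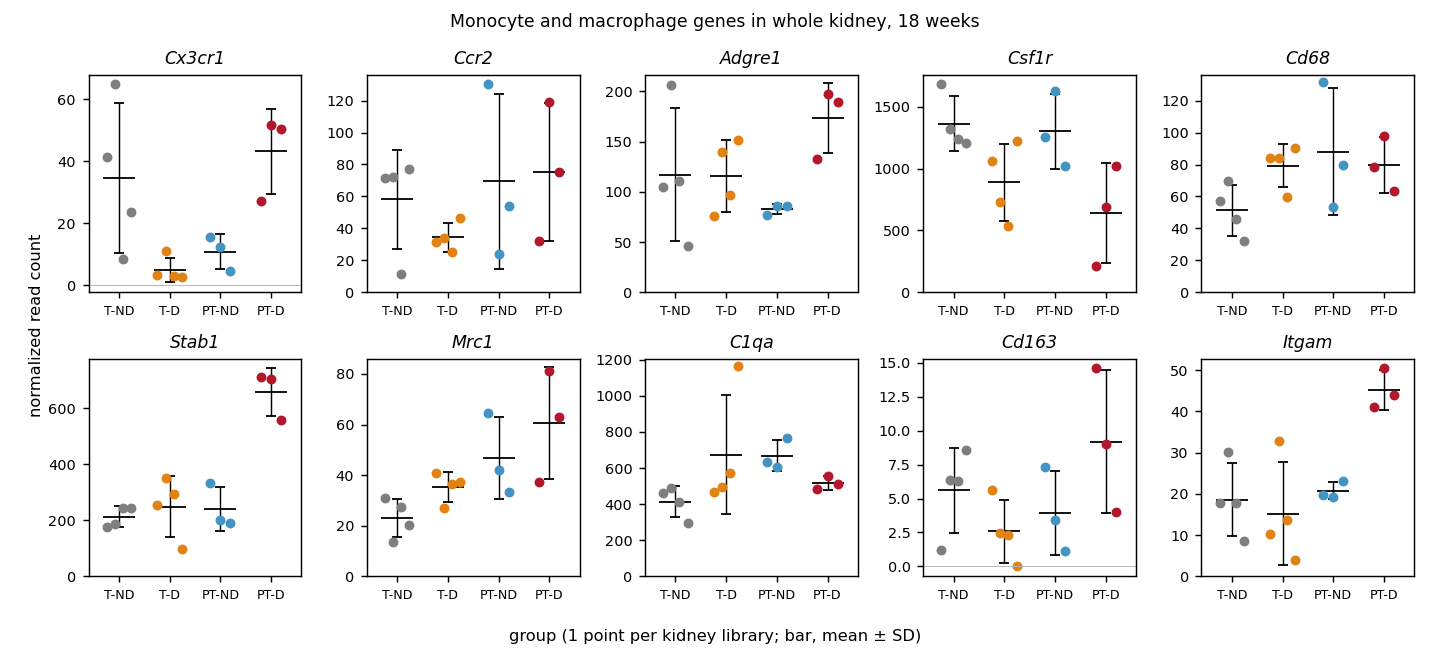
Normalized read counts (vertical axes, linear) of the 10 genes in the 4 groups, with 1 point per kidney library and bars for mean and SD. The 3 PT-D libraries lay above all others for Stab1 and Itgam, and the T-D libraries were low for Cx3cr1.

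Stab1 encodes stabilin-1, a scavenger receptor of alternatively activated macrophages and of some endothelial cells. It lies on chromosome 14 (GRCm39, 30860970 to 30890598, minus strand). Its level was 177.0, 186.3, 243.0 and 245.1 normalized counts in the T-ND libraries, 254.8, 349.7, 291.9 and 96.5 in T-D, 331.7, 199.1 and 190.4 in PT-ND, and 710.5, 704.9 and 558.2 in PT-D. Every PT-D library was above every other library, and the other 3 groups overlapped. The mean was 658 ± 86.4 (SD, n = 3) in PT-D and 213 ± 36.2 (SD, n = 4) in T-ND. The log2 fold change of PT-D against T-ND was 1.62 ± 0.17 (SE), with an adjusted p of 0.00475 by edgeR's quasi-likelihood test over all genes. Against PT-ND it was 1.45 ± 0.23, with an edgeR adjusted p of 0.00538. Against T-D, 1.40 ± 0.32 missed the threshold with an edgeR adjusted p of 0.0715. That last value rested in part on T-D replicate 4, the lowest library for Stab1, without which the adjusted p was 0.0258 at a log2 fold change of 1.14. T-D and T-ND differed by 0.21 ± 0.32 on the log2 scale and PT-ND and T-ND by 0.18 ± 0.24, both smaller than their errors. Without T-ND replicates 1 and 2 these values were 0.02 and -0.02, and without replicates 3 and 4 they were 0.45 and 0.38. Whether the effect of STZ on Stab1 differed between preterm and term mice was tested by an interaction of birth and STZ, which was 1.23 ± 0.45 with an edgeR adjusted p of 0.103.

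Stab1 was called in PT-D compared to T-ND under every setting tried. Without T-ND replicates 1 and 2 the log2 fold change was 1.42 with an edgeR adjusted p of 0.0309, and without replicates 3 and 4 it was 1.85 with an adjusted p of 0.00162. Leaving out single libraries kept it between 1.54 and 1.73. For PT-D against PT-ND the range over single libraries left out was 1.31 to 1.74, and the call held in all 6 of these fits.

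Some endothelial genes were high in the same libraries as Stab1. Cdh5, the VE-cadherin of endothelial junctions, was 1845, 1525 and 1603 normalized counts in PT-D and 408 to 1053 in the other 11 libraries. Its log2 fold change of 1.55 ± 0.23 in PT-D compared to T-ND was called with an edgeR adjusted p of 0.0203. Flt4, the VEGF-C receptor of lymphatic and fenestrated vessels, rose by 1.35 ± 0.20 with an edgeR adjusted p of 0.0203. Of the 10 endothelial genes listed, 1 was called higher in PT-D compared to T-ND and 4 (Cdh5, Kdr, Egfl7 and Flt1) in PT-D compared to PT-ND, and none lower, where 1.45% and 4.95% of all genes tested were called. Their summed level was 13140 to 17866 in PT-D against 10537 to 11423 in T-ND, 5971 to 11374 in T-D and 8819 to 14242 in PT-ND. By sign, 8 of the 10 were higher and 2 lower in PT-D compared to T-ND, and 7 were higher and 3 lower compared to PT-ND. None of these 10 genes was at 0 in any group. The part of endothelial RNA in the Stab1 difference was not tested. Cdh5, the gene of this list called in PT-D compared to T-ND, was taken for a ratio after the values were seen. Ratios to the other endothelial genes were not taken. The ratio of Stab1 to Cdh5 lay between 0.237 and 0.462 over the 14 libraries, and its range in PT-D, 0.348 to 0.462, overlapped that in T-ND, 0.287 to 0.454. The ratio of Stab1 to the macrophage gene Adgre1 was 2.95 to 5.34 in PT-D and overlapped that in T-ND, 0.903 to 5.30, and in PT-ND, 2.23 to 4.30. Relative to C1qa, another macrophage gene, Stab1 was 1.09 to 1.48 in PT-D and at most 0.835 in any other library. Stab2, the related receptor of sinusoidal endothelium, was 150.5, 146.0 and 90.4 in PT-D and 60.3 to 306.4 in the other libraries, with a log2 fold change of 0.21 ± 0.35 against T-ND and an edgeR adjusted p of 0.756.

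**Figure D2:**
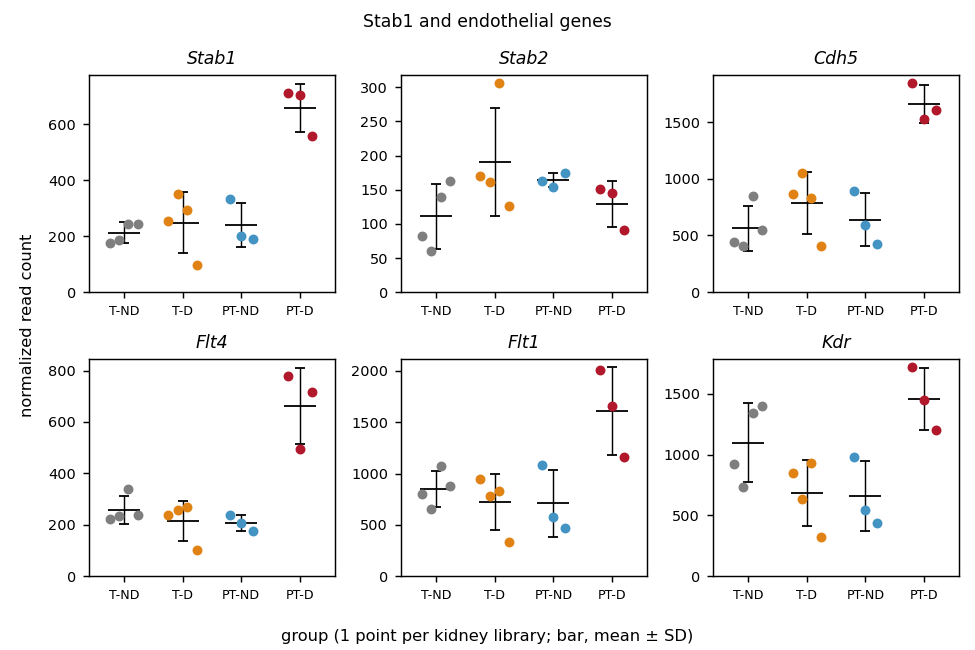
Normalized read counts (vertical axes, linear) of Stab1, Stab2 and 4 endothelial genes in the 4 groups, with 1 point per library and bars for mean and SD. PT-D libraries lay above all 11 others for Stab1, Cdh5 and Flt4, while for Stab2 they overlapped the other groups.

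Cx3cr1 encodes the fractalkine receptor of patrolling monocytes and of many kidney macrophages and dendritic cells. It lies on chromosome 9 (GRCm39, 119877749 to 119898945, minus strand). The study had itself singled out Cx3cr1 from these libraries, so that its change here is not independent evidence. Normalized counts were 41.6, 64.8, 8.38 and 23.6 in T-ND, 3.40, 10.97, 3.05 and 2.57 in T-D, 15.6, 12.4 and 4.62 in PT-ND, and 27.4, 51.9 and 50.4 in PT-D. All PT-D libraries were thus above all T-D and all PT-ND libraries, and they overlapped T-ND. The T-D levels came from only 3, 9, 4 and 2 reads and the PT-ND levels from 15, 11 and 4. Log2 values that involve T-D, the interaction among them, thus rest on a group near the limit of detection. Relative to PT-ND, Cx3cr1 in PT-D rose by 1.97 ± 0.53 on the log2 scale, with an edgeR adjusted p of 0.0349. PT-D exceeded T-D by more, 3.11 ± 0.57, but the edgeR adjusted p of 0.0580 just missed the threshold. It passed without T-D replicate 2, at 3.78 (adjusted p 0.0321), and without T-D replicate 4, at 2.93 (adjusted p 0.0478). Against T-ND the PT-D mice differed by 0.30 ± 0.57, with an edgeR adjusted p of 0.784. That value turned on which T-ND libraries were used, since it was 1.42 without replicates 1 and 2 and -0.31 without replicates 3 and 4.

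The 2 STZ differences of Cx3cr1 had opposite signs. In term mice the log2 fold change of T-D against T-ND was -2.81 ± 0.69 with an edgeR adjusted p of 0.171, and in preterm mice it was the rise of 1.97. The term value also depended on the T-ND libraries. It was -3.12 with an adjusted p of 0.0250 without T-ND replicate 3 and -3.42 with an adjusted p of 0.0136 without replicates 3 and 4. It was -1.68 with an adjusted p of 0.780 without replicates 1 and 2, and -1.54 with an adjusted p of 0.652 in the libraries without the suffix a. The interaction was 4.77 ± 0.94 with an edgeR adjusted p of 0.0199, the only one of the 10 genes past the threshold in that test. It remained past the threshold in 12 of 14 fits that left out a library, and was lost without PT-ND replicate 3 (adjusted p 0.0603) and without PT-D replicate 3 (adjusted p 0.0634). It was 3.65 with an edgeR adjusted p of 0.0476 without T-ND replicates 1 and 2, and 5.40 with an adjusted p of 0.00652 without replicates 3 and 4. In the 9 libraries without the suffix a it was 3.86 with an adjusted p of 0.107. The PT-D against PT-ND call for Cx3cr1 held in 2 of 6 fits that left out a library, with edgeR adjusted p-values between 0.0262 and 0.111, and it was lost without PT-ND replicate 2 or 3 and without PT-D replicate 2 or 3.

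Its ligand was high throughout. Cx3cl1, the membrane-bound fractalkine of tubule and vessel cells, was 1462 to 2541 normalized counts in T-ND, 1314 to 3223 in T-D, 2438 to 2866 in PT-ND and 2795 to 3332 in PT-D. It was called in none of the comparisons. The largest difference was 0.61 ± 0.18 in PT-D compared to T-ND, with an edgeR adjusted p of 0.0842.

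The promoter sequences of Stab1, Cx3cr1 and Itgam are shown because the 3 PT-D libraries were above those of T-D and PT-ND for each of these genes. They come from RefSeq (GRCm38.p6), run 5′ to 3′ on the strand of the gene, and hold 250 bases before and 50 after the transcription start. Capitals mark GAGGAA, the core letters of sites for PU.1, and TGTGGT, the core letters of RUNX sites, each searched on both strands and without overlap with each other in these runs. PU.1, encoded by Spi1, and RUNX1 are transcription factors of the myeloid lineage.
Stab1, chr14:31168592-31168891, minus strand: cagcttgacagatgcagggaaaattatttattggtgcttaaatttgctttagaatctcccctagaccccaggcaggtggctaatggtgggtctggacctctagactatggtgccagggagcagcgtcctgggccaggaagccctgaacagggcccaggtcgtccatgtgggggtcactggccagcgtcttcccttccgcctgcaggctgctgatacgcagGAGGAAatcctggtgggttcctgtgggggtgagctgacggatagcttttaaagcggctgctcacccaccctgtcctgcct
Cx3cr1, chr9:120068247-120068546, minus strand: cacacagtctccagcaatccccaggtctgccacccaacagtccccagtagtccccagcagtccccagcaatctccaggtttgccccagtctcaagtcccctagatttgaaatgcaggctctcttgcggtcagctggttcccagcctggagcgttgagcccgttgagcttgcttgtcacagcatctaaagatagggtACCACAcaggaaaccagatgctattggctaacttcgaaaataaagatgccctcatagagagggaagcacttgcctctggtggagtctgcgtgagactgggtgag
Itgam, chr7:128062390-128062689, plus strand: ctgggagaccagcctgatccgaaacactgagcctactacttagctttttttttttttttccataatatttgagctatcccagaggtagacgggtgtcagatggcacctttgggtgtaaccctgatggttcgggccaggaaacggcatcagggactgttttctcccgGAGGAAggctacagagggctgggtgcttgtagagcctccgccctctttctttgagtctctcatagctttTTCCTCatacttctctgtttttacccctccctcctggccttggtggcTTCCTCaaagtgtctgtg

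Of the 10 genes, 7 had an entry among the promoters. GAGGAA or its reverse complement TTCCTC was in 28.3% of all 27025 promoters of this length, and TGTGGT or ACCACA in 16.9%. Stab1 held 1 PU.1 core, which began at base 221 of the run, and Itgam held 3, at bases 167, 236 and 283. Cx3cr1 held no PU.1 core and 1 RUNX core, at base 197. Mrc1 held 3 PU.1 cores and Cd68 held 2, while Ccr2 and Cd163 held neither motif. Spi1 itself was 193 to 217 normalized counts in PT-D and 113 to 229 in the other libraries, and Runx1 was 55.7 to 105 in PT-D and 29.7 to 107 elsewhere. Neither was called in any comparison.

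Itgam encodes CD11b, the alpha chain that pairs with the beta-2 chain Itgb2 to form the complement receptor and adhesion molecule Mac-1 of monocytes, macrophages and neutrophils. It lies on chromosome 7 (GRCm39, 127661808 to 127717753, plus strand). Its level was 17.8, 30.1, 17.8 and 8.60 normalized counts in T-ND, 10.2, 32.9, 13.7 and 3.86 in T-D, 19.8, 19.2 and 23.1 in PT-ND, and 41.0, 50.4 and 44.0 in PT-D. As with Stab1, the PT-D libraries were above all 11 others. The log2 fold change of PT-D was 1.26 ± 0.41 against T-ND, 1.57 ± 0.55 against T-D and 1.12 ± 0.38 against PT-ND. None of these passed edgeR's adjustment over all genes, with adjusted p-values of 0.107, 0.133 and 0.0760, whereas DESeq2 gave 0.0328, 0.0483 and 0.0487. Against T-ND the value was 1.75 without T-ND replicates 1 and 2 and 0.89 without replicates 3 and 4. Against T-D it ran from 1.27 to 2.22 over single libraries left out, with the highest value when T-D replicate 2 was left out.

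The partner chain Itgb2 was 124.0, 168.5 and 118.4 normalized counts in PT-D, above all T-ND libraries at 67.0 to 105.0 and all T-D libraries at 54.4 to 114.6. In PT-ND it spread from 40.4 to 157.5. Its log2 fold change of 0.76 ± 0.24 against T-ND had an edgeR adjusted p of 0.101. Icam1, a ligand of Mac-1 on endothelium, ran differently and was 2589 to 6175 in PT-D, 1304 to 3777 in T-ND, 3468 to 7883 in T-D and 3913 to 9040 in PT-ND.

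Neutrophil genes were also high in PT-D. Of 10 neutrophil genes, 3 (Ltf, Cxcr2 and Mmp8) were called higher in PT-D compared to T-ND and 5 (Ltf, Ngp, Cxcr2, Csf3r and Mmp8) in PT-D compared to PT-ND, beside 1.45% and 4.95% of all genes. The list summed to 5675, 1669 and 1765 normalized counts in the PT-D libraries, against 407 to 1190 in T-ND, 420 to 1487 in T-D and 295 to 1486 in PT-ND. Ly6g, a defining neutrophil marker, was at 0 to 14.6 normalized counts over the 14 libraries. The part of neutrophil RNA in the Itgam difference was not tested.

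Adgre1 encodes F4/80, the classical surface marker of mouse tissue macrophages. Normalized counts were 104.6, 206.4, 111.0 and 46.2 in T-ND, 75.9, 140.1, 96.8 and 151.9 in T-D, 77.2, 86.0 and 85.4 in PT-ND, and 133.2, 197.9 and 189.5 in PT-D. The PT-D libraries were above the PT-ND libraries and overlapped both term groups. Adgre1 rose by 1.07 ± 0.25 on the log2 scale in PT-D compared to PT-ND, with an edgeR adjusted p of 0.0224. That change is close to the limit of 1 set for a call, and it held in 2 of 6 fits that left out a library, with log2 fold changes of 0.96 to 1.22 and adjusted p-values of 0.0148 to 0.0818. As for Cx3cr1, the call was lost without PT-ND replicate 2 or 3 and without PT-D replicate 2 or 3. Against T-ND and T-D it was 0.55 ± 0.40 and 0.58 ± 0.29, with edgeR adjusted p-values of 0.431 and 0.265. The former was 1.13 without T-ND replicates 1 and 2 and 0.14 without replicates 3 and 4.

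Csf1r, the receptor for the macrophage growth factors CSF1 and IL-34, went the other way. Its level was 1687, 1324, 1236 and 1209 normalized counts in T-ND, 1065, 726, 540 and 1224 in T-D, 1254, 1626 and 1021 in PT-ND, and 212.5, 691.4 and 1020 in PT-D. Every PT-D library was below every T-ND and PT-ND library, by a small margin for PT-D replicate 3. The log2 fold change was -1.10 ± 0.41 against T-ND and -1.02 ± 0.42 against PT-ND, with edgeR adjusted p-values of 0.140 and 0.134, and neither was called. DESeq2 called the difference to T-ND with an adjusted p of 0.0356. Without T-ND replicates 1 and 2 that difference was -0.94, and without replicates 3 and 4 it was -1.24. The size of the change depended on PT-D replicate 1, without which it was -0.69 against T-ND and -0.60 against PT-ND. Without PT-D replicate 3 the difference to PT-ND was -1.52 and was called, with an edgeR adjusted p of 0.0493.

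Csf1r also ran apart from the other macrophage genes. Csf1r was 1.60 to 5.38 times the normalized count of Adgre1 in PT-D, 6.42 to 26.2 times in T-ND, 5.18 to 14.03 times in T-D and 12.0 to 18.9 times in PT-ND. The genes whose log2 levels over the 14 libraries were most like those of Csf1r, among 13880 genes that averaged 20 normalized counts or more, were Mep1b, Ace and Slc6a18 (Pearson r = 0.97, 0.97 and 0.96), which encode brush-border proteins of the proximal tubule. Of 7 proximal tubule genes listed, none was called in PT-D compared to T-ND, where 1.45% of all genes were. Their summed level was 137180 to 170980 in PT-D and 140050 to 175450 in T-ND. Much of that sum was Slc34a1, at 80112 to 89878 in PT-D, and members differed. In PT-D replicate 1, the lowest library for Csf1r, Lrp2 (16819) and Aqp1 (10130) were at their lowest of the 14. Slc5a2 was 9565.5 there, above all T-ND libraries. By histology, the study reported a lower proximal tubule fraction in PT-D than in T-ND females. The part of tubular RNA in the Csf1r counts was not tested.

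The ligands of CSF1R were present in every group. Csf1 was 763 to 2157 normalized counts in T-ND, 1493 to 3255 in T-D, 1882 to 3801 in PT-ND and 1349 to 2441 in PT-D. Il34, the tubular ligand, was 189 to 478 in T-ND, 152 to 608 in T-D, 150.2 to 308 in PT-ND and 331 to 523 in PT-D. Neither was called in any comparison. The nearest was Il34 in PT-D compared to PT-ND, at 0.76 ± 0.27 on the log2 scale with an edgeR adjusted p of 0.0895.

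Ccr2 encodes the receptor that draws classical monocytes toward CCL2, CCL7 and CCL12. Normalized counts were 71.3, 72.2, 11.5 and 77.4 in T-ND, 31.7, 34.1, 25.1 and 46.3 in T-D, 130.4, 23.8 and 54.2 in PT-ND, and 31.9, 118.9 and 75.2 in PT-D. All groups overlapped, and within PT-ND the highest library was over 5 times the lowest. The largest difference, PT-D against T-D, was 1.13 ± 0.43 on the log2 scale, with an edgeR adjusted p of 0.157.

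The ligand Ccl2 did change. Ccl2, the chemokine that recruits classical monocytes, was 709, 686, 713 and 877 normalized counts in T-ND, 1782, 2190, 937 and 1207 in T-D, 2297, 1850 and 1795 in PT-ND, and 874, 284 and 419 in PT-D. All T-D and PT-ND libraries were above all T-ND and all PT-D libraries. Ccl2 rose by 1.41 ± 0.14 on the log2 scale in PT-ND compared to T-ND, with an edgeR adjusted p of 0.00649. Between PT-ND and PT-D it fell by 1.92 ± 0.34 on the log2 scale, with an edgeR adjusted p of 0.00775. Differences of -1.54 ± 0.38 for PT-D against T-D and 1.02 ± 0.23 for T-D against T-ND were not called, with edgeR adjusted p-values of 0.0820 and 0.155. The interaction for Ccl2 was -2.95 ± 0.46 with an edgeR adjusted p of 0.00792. Its sign is opposite to that of Cx3cr1, whose level was low in both groups where Ccl2 was high. Ccl7 and Ccl12, which are neighbours of Ccl2 in its chemokine cluster, were called in none of the comparisons.

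**Figure D3:**
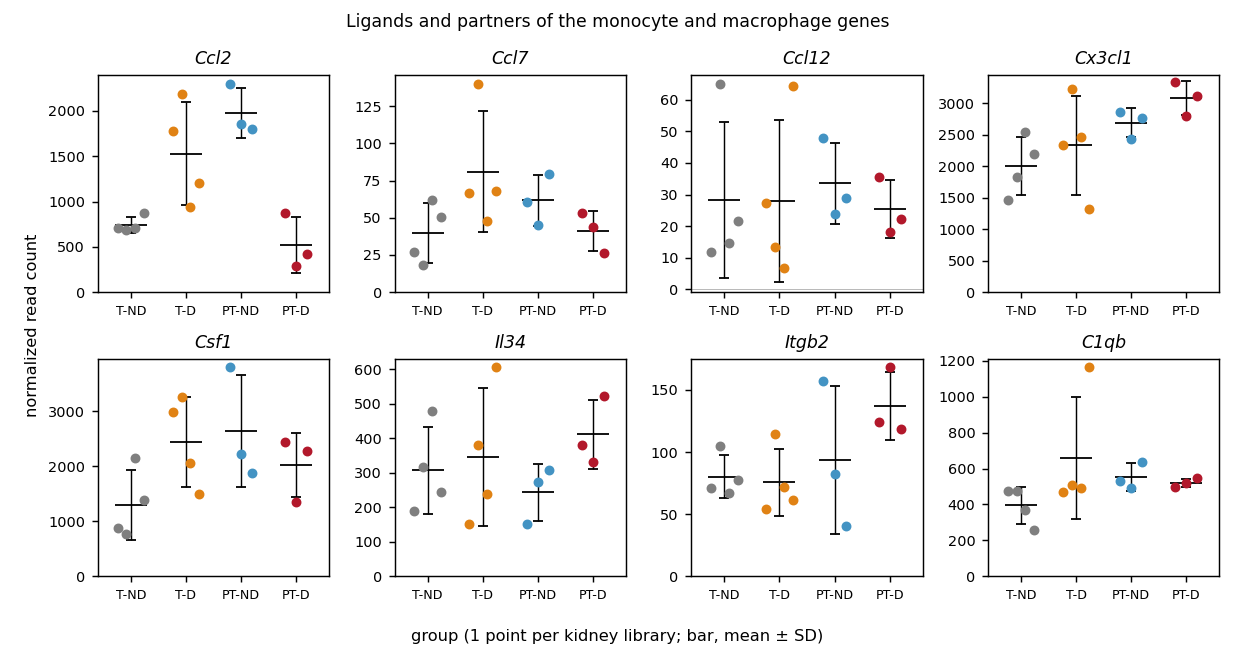
Normalized read counts (vertical axes, linear) of chemokines and growth factors that bind the products of these genes and of the partner chains Itgb2 and C1qb, with 1 point per library and bars for mean and SD. Ccl2 was high in T-D and PT-ND, and its PT-D libraries lay between 284 and 874.

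C1qa encodes the A chain of complement component C1q, which is made mainly by macrophages. Its level was 460, 487, 411 and 293 normalized counts in T-ND, 465, 492, 570.0 and 1164 in T-D, 636, 606 and 766 in PT-ND, and 482, 556 and 511 in PT-D. T-D replicate 4 was well above the other T-D libraries, and the PT-D libraries lay close together. PT-D was below PT-ND in every library at -0.37 ± 0.15 on the log2 scale, and PT-ND was above T-ND at 0.70 ± 0.18, with edgeR adjusted p-values of 0.131 and 0.256. The latter difference was 0.93 without T-ND replicates 1 and 2 and 0.47 without replicates 3 and 4. The interaction of birth and STZ for C1qa was negative and not called, with an edgeR adjusted p of 0.0914, whereas DESeq2 called it. The chains C1qb and C1qc, which assemble with C1qa, were the genes most like it over the 14 libraries (r = 0.95 and 0.94). The ratio of C1qa to C1qb stayed between 0.937 and 1.235 over the 14 libraries. In PT-ND it was 1.20 to 1.235, above the 0.937 to 1.07 of PT-D.

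Cd68, a lysosomal glycoprotein of macrophages, was 57.0, 69.4, 46.1 and 32.2 normalized counts in T-ND, 83.8, 84.1, 59.4 and 90.1 in T-D, 131.4, 53.2 and 79.6 in PT-ND, and 78.4, 97.8 and 63.2 in PT-D. T-ND was the lowest group on average and overlapped each of the others. The PT-D against T-D difference was 0.01 ± 0.30 on the log2 scale. The genes most like Cd68 were Cd53, Coro1a and Cyth4 (r = 0.88, 0.83 and 0.82), of which Cd53 and Coro1a are general leukocyte genes.

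Mrc1, the mannose receptor CD206 of resident macrophages, was 30.9, 13.7, 27.2 and 20.4 normalized counts in T-ND, 40.8, 26.8, 36.6 and 37.3 in T-D, 64.7, 41.8 and 33.5 in PT-ND, and 37.4, 81.3 and 63.2 in PT-D. All PT-D and all PT-ND libraries were above all T-ND libraries. The log2 fold change was 1.39 ± 0.38 in PT-D compared to T-ND and 1.02 ± 0.40 in PT-ND compared to T-ND, with edgeR adjusted p-values of 0.0720 and 0.422. DESeq2 called the former with an adjusted p of 0.0116. Without T-ND replicates 1 and 2 these values were 1.33 and 0.97, and without replicates 3 and 4 they were 1.45 and 1.05. PT-D and PT-ND differed by 0.38 ± 0.40.

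Cd163, the macrophage receptor for haemoglobin bound to haptoglobin, was near the limit of detection. It was 0 in T-D replicate 4, at most 8.60 normalized counts in the other T-ND, T-D and PT-ND libraries, and 14.6, 9.03 and 4.00 in PT-D. No comparison was called, and standard errors of its log2 fold changes were between 0.72 and 0.93 in the 5 pairs of groups.

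**Figure D4:**
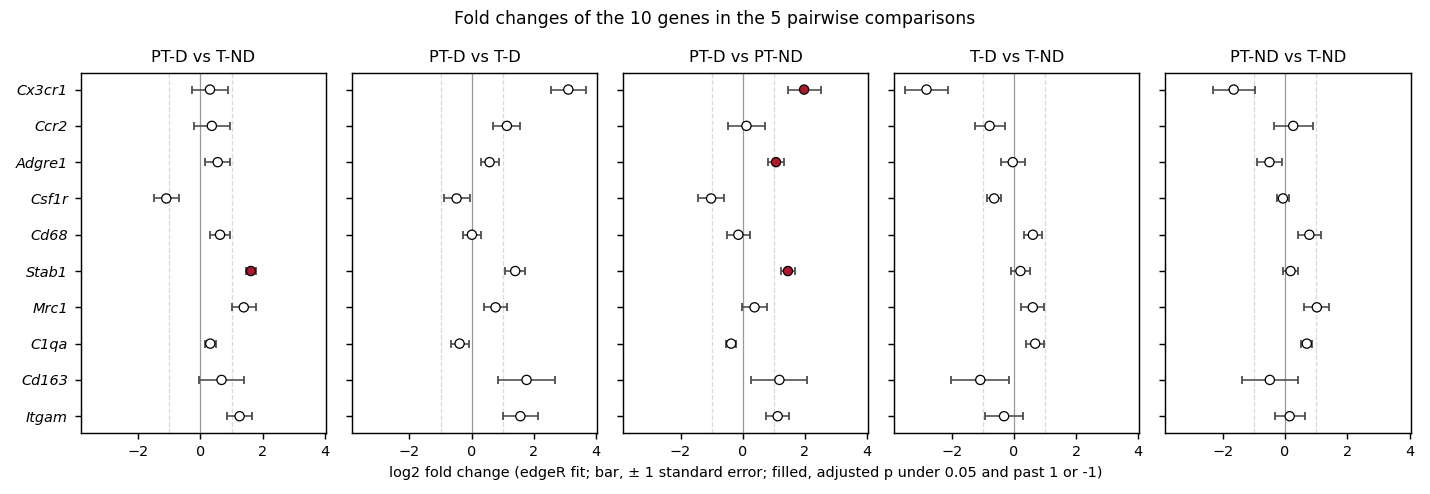
Log2 fold changes (horizontal axes) of the 10 genes in 5 pairwise comparisons, with bars for 1 standard error. Filled points are the calls (Stab1 in PT-D vs T-ND, and Cx3cr1, Adgre1 and Stab1 in PT-D vs PT-ND), and dashed lines stand at -1 and 1.

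Counted over the 10 genes, calls were few. A call required a log2 fold change past 1 or -1 together with an adjusted p under 0.05. Between PT-D and T-ND, 1 of 10 was called (Stab1), where 1.45% of all genes tested were, and 9 of 10 had positive log2 fold changes with a median of 0.59 against 0.03 for all genes. In 4 of 10 the groups did not overlap (Stab1, Mrc1 and Itgam higher, Csf1r lower), as was so for 23.2% of all genes. Between PT-D and PT-ND, 3 of 10 were called against 4.95% of all genes, the median was 0.72 against 0.05, and 6 of 10 did not overlap against 34.4% of all genes. The latter were Cx3cr1, Adgre1, Stab1 and Itgam, which were higher, and Csf1r and C1qa, which were lower.

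For PT-D against T-D edgeR called 0 of the 10 and 0.193% of all genes, DESeq2 called 3 (Cx3cr1, Stab1 and Itgam), and 4 of 10 had an unadjusted p under 0.05 against 22.3% of all genes. Cx3cr1, Stab1 and Itgam did not overlap, which was so for 23% of all genes. The median log2 fold change was 0.95 against 0.06 for all genes. For T-D against T-ND edgeR called 0 of the 10 and 0.0673% of all genes, DESeq2 called 1 (Cx3cr1), 3 of 10 had an unadjusted p under 0.05 against 11.8% of all genes, and 0 of the 10 did not overlap against 6.66% of all genes. For PT-ND against T-ND edgeR called 0 of the 10 and 0.0809% of all genes, DESeq2 called 0, 3 of 10 had an unadjusted p under 0.05 against 10.7% of all genes, and Mrc1 and C1qa did not overlap, which was so for 11% of all genes. In the interaction 1 of 10 was called against 4.45% of all genes. The comparisons share groups, so their values are not independent of each other.

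The 10 genes did not move as a block. Over the 14 libraries the 45 pairs among them had Pearson r between -0.67 (Csf1r with Stab1) and 0.77 (Stab1 with Itgam), with a median of 0.18. After the group means were taken out, the median was 0.07. These correlations are a description and share library depth and tissue makeup. For Stab1 the most alike genes were Cyyr1, Map4 and Synpo (r = 0.98, 0.96 and 0.96), for Cx3cr1 they were Arhgef10, Krr1 and Pcdh12 (r = 0.92 for each of these), and for Itgam they were Npas2, Gm9887 and Stk10 (r = 0.93, 0.92 and 0.90). Those for Adgre1 were Il13ra1, Dnaja1 and Gnl3 (r = 0.89, 0.89 and 0.88), those for Mrc1 were Spata1, Sla and Gm28151 (r = 0.86, 0.85 and 0.84), and those for Cd163 were Cyth3, Sorbs2 and Serpini1 (r = 0.93, 0.89 and 0.88). For Ccr2 the likeness was weaker, with Gm14295, Grap and Snx9 (r = 0.81, 0.75 and 0.75).

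**Figure D5:**
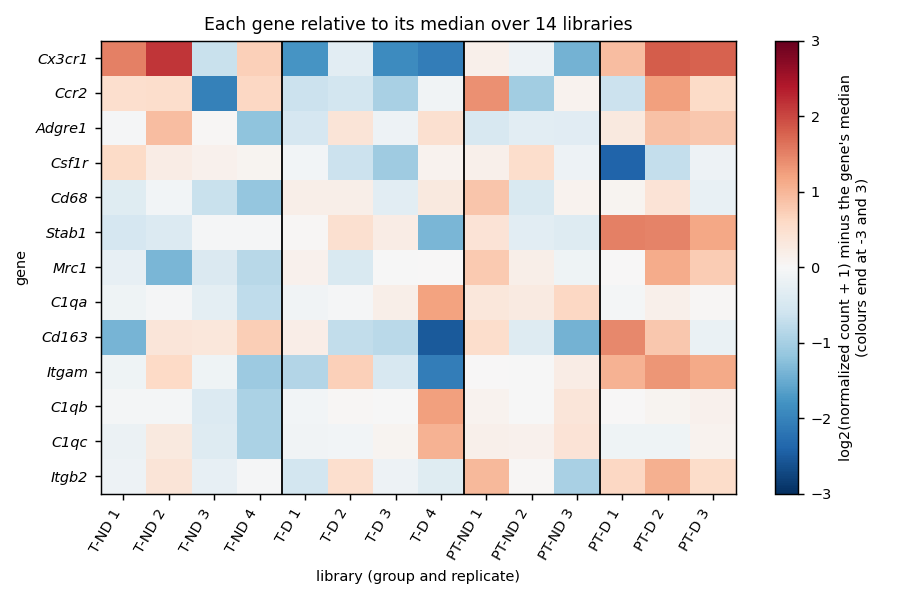
Colours give log2(normalized count + 1) minus each gene's median over the 14 libraries, for the 10 genes and 3 partner chains (rows) in each library (columns, grouped). Stab1 and Itgam are above their medians in all 3 PT-D libraries, and C1qa, C1qb and C1qc are highest together in T-D replicate 4.

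Other myeloid genes were read from lists that do not hold the 10. Of 23 further macrophage genes with enough counts, 4 were called in PT-D compared to PT-ND, all higher, beside 4.95% of all genes, and none in the other pairs or in the interaction by edgeR. Msr1, a scavenger receptor, rose by 1.19 ± 0.24 on the log2 scale with an edgeR adjusted p of 0.0132, and Cd14, the co-receptor for endotoxin, rose by 1.53 ± 0.31 with an edgeR adjusted p of 0.0133. The others were Fcgr1, an Fc receptor, at 1.03 and the transcription factor gene Maf at 1.16. The list's median log2 fold change in PT-D compared to PT-ND was only 0.16, with 16 genes positive and 7 negative. In the interaction the median was -0.33, with 8 positive and 15 negative. Against T-ND, 8 of the 23 had an unadjusted p under 0.05, all higher, beside 24.3% of all genes in either direction, and the list's median log2 fold change was 0.54. Its median was 0.52 in T-D compared to T-ND, nearly the same. For PT-D against T-D it was -0.03, with 11 genes positive and 12 negative, and of the 7 with an unadjusted p under 0.05, 5 were higher and 2 lower. Siglec1, the sialoadhesin of tissue macrophages, was 19.2 to 60.2 normalized counts in PT-D and 0 to 22.0 elsewhere, with an edgeR adjusted p of 0.0685 against T-D. The tissue-resident marker Vsig4 did not reach the count needed for a test in this set of libraries.

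Among the 11 monocyte genes tested, Plac8 and Ms4a4c were called higher in PT-D compared to PT-ND, beside 4.95% of all genes. Their log2 fold changes were 1.04 and 1.80. No gene of the list was called lower there, and none was called in another comparison by edgeR. The median log2 fold change of the list was 0.45 in PT-D compared to PT-ND, 0.53 against T-ND and 0.88 against T-D. Ly6c2, the defining gene of classical monocytes, was 52.0 to 95.8 normalized counts in PT-D and 15.0 to 136 elsewhere, so that the groups overlapped.

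Among 10 transcription factor genes of the myeloid lineage, Klf4, a factor of patrolling monocytes that endothelial cells also express, rose by 1.37 ± 0.24 on the log2 scale in PT-D compared to PT-ND with an edgeR adjusted p of 0.00804. Its level was 464, 307 and 258 normalized counts in PT-D and 123 to 227 in the other 11 libraries. The interaction for Klf4 was 1.54 ± 0.33 with an edgeR adjusted p of 0.0244, and that for Cebpb was -2.23 ± 0.57 with an edgeR adjusted p of 0.0362. Cebpb was 421 to 2092 normalized counts in T-ND, 2872 to 4335 in T-D, 1945 to 2889 in PT-ND and 1821 to 2108 in PT-D. Klf4 was called in no other pair of groups, and Cebpb in none of the 5 pairs.

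Genes of all leukocytes were read in the same libraries. Ptprc, the pan-leukocyte surface protein CD45, was 248, 281 and 349 normalized counts in PT-D and 101 to 221 in the other libraries. It rose by 1.10 ± 0.23 on the log2 scale in PT-D compared to T-ND, with an edgeR adjusted p of 0.0401, and by 0.94 ± 0.28 compared to PT-ND, below the size set for a call, with an edgeR adjusted p of 0.0469. It was 1 of 8 pan-leukocyte genes called in PT-D compared to T-ND, and none of the 8 was called in the other comparisons by edgeR. The sum of the 8 was 1983 to 2430 in PT-D, 1179 to 2234 in T-ND, 1590 to 2211 in T-D and 1861 to 2793 in PT-ND.

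Lists for other cell types were measured in the same libraries. Of all genes tested, 1.45% were called in PT-D compared to T-ND and 0.193% compared to T-D. The share was 4.95% compared to PT-ND and 4.45% in the interaction. Of 8 dendritic cell genes, Cd209a was called lower in PT-D than in PT-ND, where PT-ND replicate 1 was the highest library, and in the interaction. None of 9 T and NK cell genes and none of 6 B cell genes was called in any comparison by edgeR. The B cell genes summed to 10.5 to 66.7 normalized counts over the 14 libraries. Of 6 lymphatic endothelial genes, Flt4 was called higher in PT-D compared to T-ND, and Flt4 and Pdpn in PT-D compared to PT-ND. The list did not rise as a whole. Against T-ND 2 of the 6 were higher and 4 lower, with a median log2 fold change of -0.56. Against PT-ND 3 were higher and 3 lower, with a median of -0.16. Of 5 red cell genes tested, Slc4a1, which kidney intercalated cells also express, was called lower in PT-D than in PT-ND. Among 8 genes that handle haemoglobin and iron, Hmox1 was called higher in PT-D against T-D and Hpx in PT-D against T-ND, while Blvrb was called lower in PT-D against PT-ND. Of 8 genes of other kidney segments, Umod was called lower and Nphs1 higher in PT-D compared to T-ND, and Nphs1 was also called higher against PT-ND.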

How the data were processed

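Whole-kidney RNA of 14 mice was sequenced as un-stranded poly-A libraries. The authors trimmed the reads, aligned them to GRCm39 with STAR and deposited, for each gene, the raw count of reads that mapped to 1 place, which leaves out reads in exons that several genes share. The study's methods name GENCODE release M36, and symbols and positions were taken here from release M39, to which 56236 of the 56980 gene IDs matched without version. The unstranded counts were used and groups were taken from the labels. Genes with more than 10 counts in all were tested by the quasi-likelihood test of edgeR 4.0.16 (R 4.3.3, TMM normalization, two-sided) with Benjamini-Hochberg adjustment, each pair of groups on its own libraries and the interaction on all 14. A call needed an adjusted p under 0.05 and a log2 fold change beyond 1 or -1.

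The 10 genes and the lists of related genes were chosen with earlier results of these data known. Genes outside the 10 were named where they are ligands or partners, where they were called in a comparison, where they had 1 of the 4 smallest p-values of their list, or where they were among the 3 most like a member over the libraries. Hmox1, Ly6g, Ly6c2, Vsig4 and Spi1 were named outside this rule after their values were seen, as was the comparison of Stab1 with Cdh5. Slc34a1, Lrp2, Aqp1 and Slc5a2 were also named after their values were seen. Likeness used TMM-normalized log2 CPM with a prior count of 2. Alternatives were DESeq2 1.42.0, other normalizations and filters, a joint fit, a suffix covariate, replicate blocks and each library left out. The code was also run on counts simulated with the same dispersion for every gene, with changes planted in well-counted genes only. That run does not bear on genes with few reads or on groups that split, as T-ND did for Hmox1. Each library is 1 mouse, so p-values measure the spread between mice. A result of the monocyte list is not reported here.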

Additional observations from a re-analysis of the deposited data

Results flagged for a closer look

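In 3 of the 20 gene and group pairs with 4 libraries, 1 library lay far from the others by Dixon's test, where chance gives about 1 in 20. Cx3cr1 was 10.97 normalized counts in T-D replicate 2 and at most 3.40 in the other T-D libraries. Without T-D replicate 2 its log2 fold change was 3.78 in place of 3.11 in PT-D compared to T-D. In T-D compared to T-ND it was -3.48 in place of -2.81. Ccr2 was 11.5 normalized counts in T-ND replicate 3 and at least 71.3 in the other T-ND libraries. C1qa was 1164 normalized counts in T-D replicate 4 and at most 570.0 in the other T-D libraries. Without T-D replicate 4 the log2 fold change of C1qa in T-D compared to T-ND was 0.30 in place of 0.68. By the main fit the interaction of birth and STZ for Cx3cr1 was 4.77 on the log2 scale, with an edgeR adjusted p of 0.0199. Over the fits that left out a library its adjusted p lay between 0.00973 and 0.0634, and in the libraries without the suffix a it was 0.107. The T-D libraries held only 3, 9, 4 and 2 reads of Cx3cr1. A repeat course of STZ was given to some PT-D but no T-D mice, so birth and dosing cannot be told apart in this value.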

How the results depend on the processing

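All 27 log2 fold changes given for the 10 genes were refitted under the alternatives, and 3 of them changed sign in at least 1 refit. Cx3cr1 in PT-D compared to T-ND was -0.31 without T-ND replicates 3 and 4, 1.42 without T-ND replicates 1 and 2, 1.66 in the libraries without the suffix a, and -0.02 to 0.81 over single libraries left out. Cd68 in PT-D compared to T-D was -0.013 with DESeq2, -0.017 with RLE, -0.029 with upper quartile normalization and -0.00096 with the filterByExpr filter, and -0.16 to 0.16 over single libraries left out. Stab1 in PT-ND compared to T-ND was -0.021 without T-ND replicates 1 and 2, and -0.15 to 0.32 over single libraries left out. The number of the 10 genes called moved as follows. DESeq2 called 4 in PT-D compared to T-ND, 3 in PT-D compared to T-D, 1 in T-D compared to T-ND and 2 in the interaction. In PT-D compared to T-D, no filter on low counts and the joint fit of all 14 libraries each gave 2. In PT-D compared to PT-ND the joint fit gave 1. In T-D compared to T-ND, leaving out T-ND replicates 3 and 4 gave 1 (Cx3cr1). The 9 libraries without the suffix a gave 0 in the interaction. Over single libraries left out, the counts ran from 0 to 2 in PT-D compared to T-D, 0 to 1 in T-D compared to T-ND, 1 to 3 in PT-D compared to PT-ND and 0 to 1 in the interaction. The cause of these shifts was not tested.

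Libraries with the same replicate number were not more alike than others (median r -0.11 by the labels' numbers and 0.02 for other pairs). With a replicate block, by either numbering, 1 of the 10 (Stab1) was called in PT-D compared to T-D, and in PT-D compared to PT-ND the block gave 4 with the labels' numbers (Csf1r added) and 1 (Stab1) with the numbers that the study lists. By either numbering it gave 1 in PT-D compared to T-ND and in the interaction and 0 in T-D and PT-ND compared to T-ND. Over all genes, DESeq2 called 947 against 323 by edgeR in PT-D compared to T-ND, 655 against 43 in PT-D compared to T-D, 293 against 15 in T-D compared to T-ND, 169 against 18 in PT-ND compared to T-ND, and 1645 against 993 in the interaction. Over all alternatives the calls among all genes ran from 28 to 1399 in PT-D compared to T-ND, 17 to 657 in PT-D compared to T-D, 1 to 482 in T-D compared to T-ND, 594 to 1501 in PT-D compared to PT-ND (1105 as reported), 1 to 213 in PT-ND compared to T-ND and 12 to 1645 in the interaction. Groups of 3 or 4 mice and fewer than 100 reads per library for Cx3cr1, Itgam and Cd163 limit what could be detected. The settings with T-ND pairs left out or without the suffix a were chosen after the data were seen.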
